A study of Mus musculus with 12 samples.

Results

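Caspases, BCL2 family proteins and p53 form the core machinery of programmed cell death, and 8 of their genes were followed here by name: Casp8, Casp9, Bax, Bak1, Bcl2, Bcl2l1, Trp53 and Cdkn1a. Each name matched 1 gene of the 37432 in the table of expression values, so the account covers 8 of 37432 genes, each read in all 12 RNA-seq libraries. The libraries came from the cochlea of P14 mice (postnatal day 14), divided into apical, middle and basal turns, with 2 libraries for every turn of wild-type and of Gjb2 35delG/35delG homozygous animals. Gjb2 encodes connexin 26, a gap junction protein of non-sensory cochlear cells, and 35delG is a single-base deletion that causes hereditary deafness in people. The comparison asks whether RNA of the death and survival genes differed between genotypes, turn by turn. Homozygous mice were males derived from embryonic stem cells through tetraploid complementation, on a nearly pure C57BL/6J background, born by cesarean and raised by ICR foster mothers, whereas wild-type males of that age were bought. Genotype and origin of the mice therefore cannot be told apart. The 2 libraries of a group are biological repeats, and how many animals went into each is not given in the sources used here. Each cochlea was divided into the 3 turns, so libraries of different turns may share animals, although the tests take them as independent.

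Apoptosis can start from outside or from inside a cell. Ligand-bound death receptors such as Fas activate caspase-8, which Cflar (c-FLIP) restrains, whereas inside the cell Bax and Bak1 perforate the outer mitochondrial membrane unless Bcl2 or Bcl2l1 (BCL-XL) restrain them, and released cytochrome c activates caspase-9. The p53 protein, product of Trp53, switches on genes of both routes and halts the cell cycle through Cdkn1a (p21), and death of hair cells and supporting cells is a known end point of many forms of deafness.

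Levels are given as scaled FPKM, FPKM being a fragment count adjusted for transcript length and for library size, divided by 1 factor per library (0.917 to 1.06). FPKM values hold no counts, so the depth in reads is unknown. A gene was tested if it reached 1 FPKM in 2 libraries, which 16215 genes did, all 8 named genes included. Differences are log2 fold changes of scaled FPKM + 1, a scale that understates changes of low genes, with the standard error (SE) from limma, and a gene was called when its Benjamini-Hochberg (BH) adjusted p was under 0.01 and its fold change over 2.

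Over all tested genes 10 of 12 libraries lay nearest to a library of their own genotype, 6 of them to their own repeat. The exceptions were the 2 wild-type basal libraries, each nearest to a homozygous middle library. As a Euclidean distance over log2 levels, homozygous basal libraries were on average 89.0 from wild-type middle libraries, 129 from wild-type basal and 131 from homozygous middle libraries. Homozygous middle libraries were 63.5 from homozygous apical, their nearest group, 84.9 from wild-type basal and 107 from wild-type middle libraries. The 2 wild-type basal libraries were 105 apart, the widest gap inside any of the 6 groups, where the narrowest was 40.3. Whether turn labels are exchanged within a genotype was not tested, and every middle or basal comparison rests on these libraries.

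Gjb2 itself, whose transcript can still be counted after a single-base deletion, did not differ in the same direction in every turn. Apical Gjb2 measured 248 and 254 scaled FPKM (wild-type) against 332 and 376 (homozygous), middle Gjb2 139.7 and 268 against 256 and 451, and basal Gjb2 434 and 256 against 126 and 58.6. Homozygous values were higher apically, overlapped wild-type values in the middle turn (above them on FPKM as deposited and with equal library sums) and were lower basally. The widest difference, in the basal turn, was not called: -1.94 (SE 0.47, limma BH-adjusted p = 0.0238).

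The initiators are the caspases that start each route. Casp8, the initiator downstream of death receptors, lies at chr1:58795374-58847503 on the plus strand (mm10, ENSMUSG00000026029.14). Its promoter is printed because Casp8 was the one gene of the 8 with a called difference. The RefSeq window of 250 bases before its start, chr1:58802252-58802501 on the plus strand of GRCm38.p6, overlaps no annotated exon, and its RefSeq start lies inside the longer span that the table gives the gene.
Casp8: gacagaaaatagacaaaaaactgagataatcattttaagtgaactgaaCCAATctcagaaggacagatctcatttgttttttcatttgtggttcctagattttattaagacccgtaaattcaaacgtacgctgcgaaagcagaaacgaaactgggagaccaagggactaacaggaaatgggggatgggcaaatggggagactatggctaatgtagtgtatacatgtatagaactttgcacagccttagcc
Capitals mark CCAAT, which itself or as ATTGG on the other strand is found in 33.8% of 32851 promoter windows of this length. The letters GGGCGG or CCGCCC (32.7% of windows) and TATAAA or TTTATA (12.4%), and the p53 half-site RRRCWWGYYY (R is A or G, W is A or T, Y is C or T; 7.13%), were searched on both strands too and are not in this window. G and C made up 39.6% of it, against 66.0% for Casp9 and 74.8% for Bcl2, and such matches are descriptions of letters only.

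Casp8 measured 5.32 and 3.84 scaled FPKM in the wild-type apical pair and 7.48 and 7.16 in the homozygous one. The middle pairs measured 3.01 and 4.34 for wild-type and 10.2 and 7.97 for homozygous mice. In basal libraries the order was the opposite, at 6.55 and 8.17 for wild-type and 3.60 and 2.63 for homozygous mice. Homozygous Casp8 was therefore above wild-type apically and in the middle turn, below it basally, and the pairs overlapped nowhere. Pairs that do not overlap were common over all tested genes: homozygous values lay above in 26.9% (apical), 31.3% (middle) and 26.2% (basal), and below in 32.1%, 28.2% and 27.8%.

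**Figure D1:**
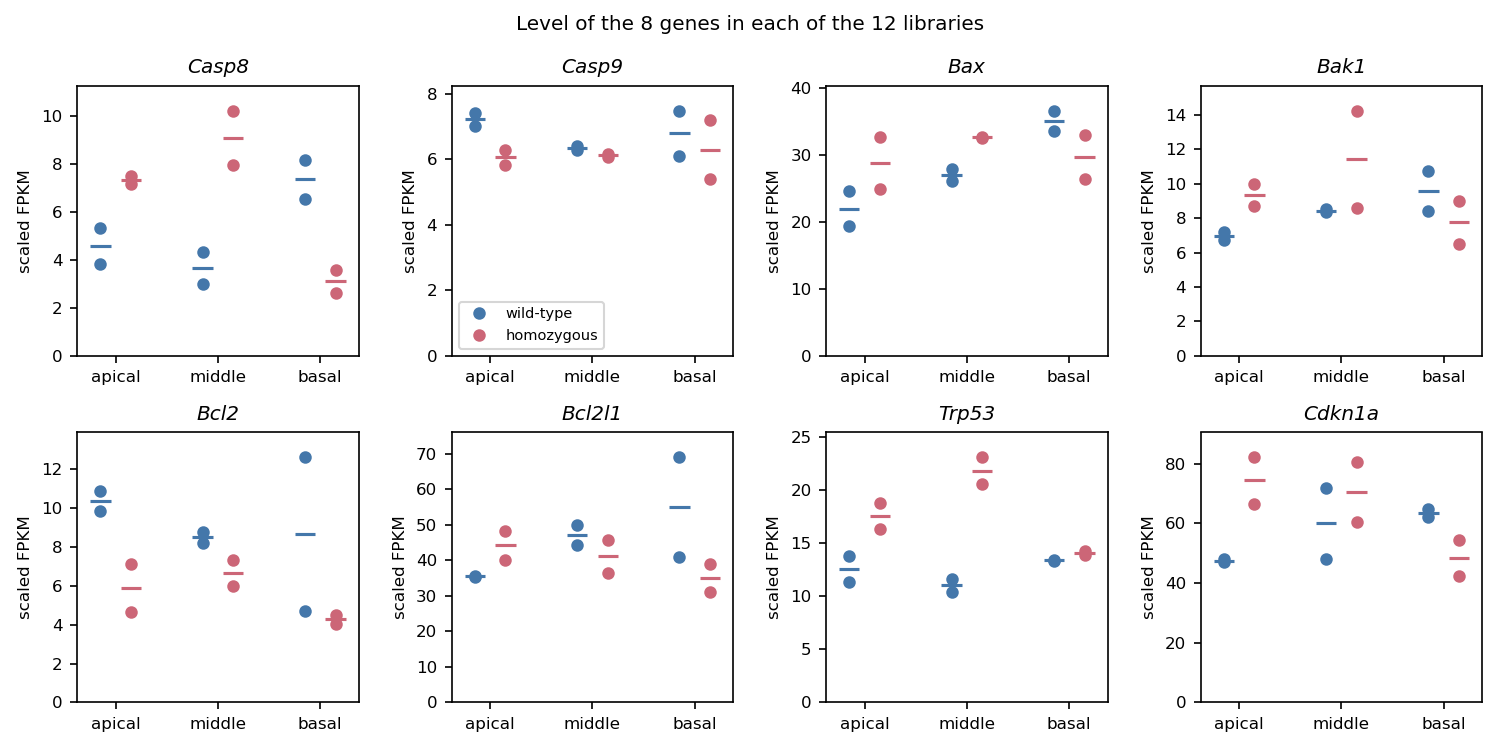
Scaled FPKM (vertical axes, starting at 0) of the 8 genes by cochlear turn; points are single libraries, wild-type in blue and homozygous in red, and bars are means of 2 libraries. Casp8 runs from 2.63 to 10.2 and is lower in homozygous libraries in the basal turn only, while Trp53 is at 13.9 or more in the 6 homozygous and at 13.8 or less in the 6 wild-type libraries, an order not kept on FPKM as deposited or with equal library sums.

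Inside a single turn none of the 8 genes was called. For Casp8 the homozygous over wild-type difference was 0.59 (SE 0.23, limma BH-adjusted p = 0.245) apically, 1.12 (SE 0.23, adjusted p = 0.0399) in the middle turn and -1.03 (SE 0.23, adjusted p = 0.0173) basally. Of all tested genes limma called 29 apically (0.179%), 29 in the middle turn (0.179%) and 696 basally (4.29%), and among the 8 genes 3, 2 and 2 had an unadjusted p under 0.05, against 16.4%, 25.4% and 32.4% of all tested genes. An adjusted p under 0.05 without a fold limit was met by 3.99% of genes in the middle turn, Casp8 and Trp53 among them, and by 18.1% basally, Casp8 among them.

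The genotype difference of Casp8 was itself different between turns. The basal less middle value was -2.14 (SE 0.32, limma BH-adjusted p = 0.00362), the 1 call among the 8 genes in tests of whether the genotype difference varies by turn. That contrast called 1445 genes in all (8.91%), compared with 1 of the 8 here. Basal against apical turn, the difference of Casp8 was -1.61 (SE 0.32, adjusted p = 0.0178), with 129 genes called by limma (0.796%). Middle against apical turn it was 0.53 (SE 0.32, adjusted p = 0.656), where limma called 0 genes (0%) and 1306 had an unadjusted p under 0.05.

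That Casp8 call was lost with no filter on low values (limma BH-adjusted p = 0.0118). It was also lost without the first wild-type middle library (-1.94), the first homozygous middle library (-1.98) or the second homozygous basal library (-1.96), and adjusted p ran from 0.00238 to 0.0139 over 24 alternatives.

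Cell type markers also varied between the libraries behind the Casp8 comparison. The 10 neuron markers, with Calb2 the most abundant, summed to 2296 and 2941 scaled FPKM in wild-type middle, 540.0 and 79.4 in homozygous middle, 42.4 and 919.6 in wild-type basal and 3917 and 3866 in homozygous basal libraries. Apical sums were 1153 and 1658 for wild-type and 248 and 521 for homozygous mice. All 10 were lower in the homozygous middle turn and all 10 higher in the homozygous basal turn. Limma called 0 in either, with 8 and 10 at an unadjusted p under 0.05 (all genes 25.4% and 32.4%). The basal less middle genotype difference was called higher for 3 of the 10 (all genes 6.33%). Among the 10, 2 were listed at 0 in at least 1 library. The 2 libraries with the highest neuron sums, both homozygous basal, included the one with the lowest Casp8 level.

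Myelin followed the neuron markers. The 9 Schwann cell and myelin markers, of which Mbp was the most abundant and none was listed at 0, summed to 20122 and 5784 in wild-type middle, 861 and 881 in homozygous middle, 1565 and 5717 in wild-type basal and 9408 and 14866 in homozygous basal libraries. Their apical sums were 2684 and 2869 (wild-type) and 1725 and 2261 (homozygous). In the middle turn all 9 were lower in homozygous libraries (1 called, against 0.179% of all genes). Basally 8 of 9 were higher (3 called, against 4.29% of all genes). Casp8 took the opposite course in both turns. The basal less middle genotype difference was called higher for 5 of these 9 markers, against 6.33% of all genes.

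Hair cell markers were scarce where Casp8 was lowest, but apically their genotype difference was opposite in direction to that of Casp8. The 9 of them, led by Ocm and with 2 at 0 somewhere, summed to 113 and 104 basally for wild-type against 8.003 and 4.90 for homozygous mice, with all 9 lower and 3 called (all genes 4.29%). Middle sums were 20.8 and 90.8 (wild-type) and 209.7 and 378 (homozygous), with 8 of 9 higher and 1 called (all genes 0.179%). The basal less middle genotype difference was called lower for 6 of the 9 (all genes 2.58%). Apical sums were 534 and 532 (wild-type) and 307 and 276 (homozygous), with all 9 lower, 0 called by limma and 6 at an unadjusted p under 0.05 (all genes 16.4%). The part of cell makeup in the Casp8 difference was not tested, and in bulk tissue fewer cells of a type and less RNA per cell cannot be told apart.

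**Figure D2:**
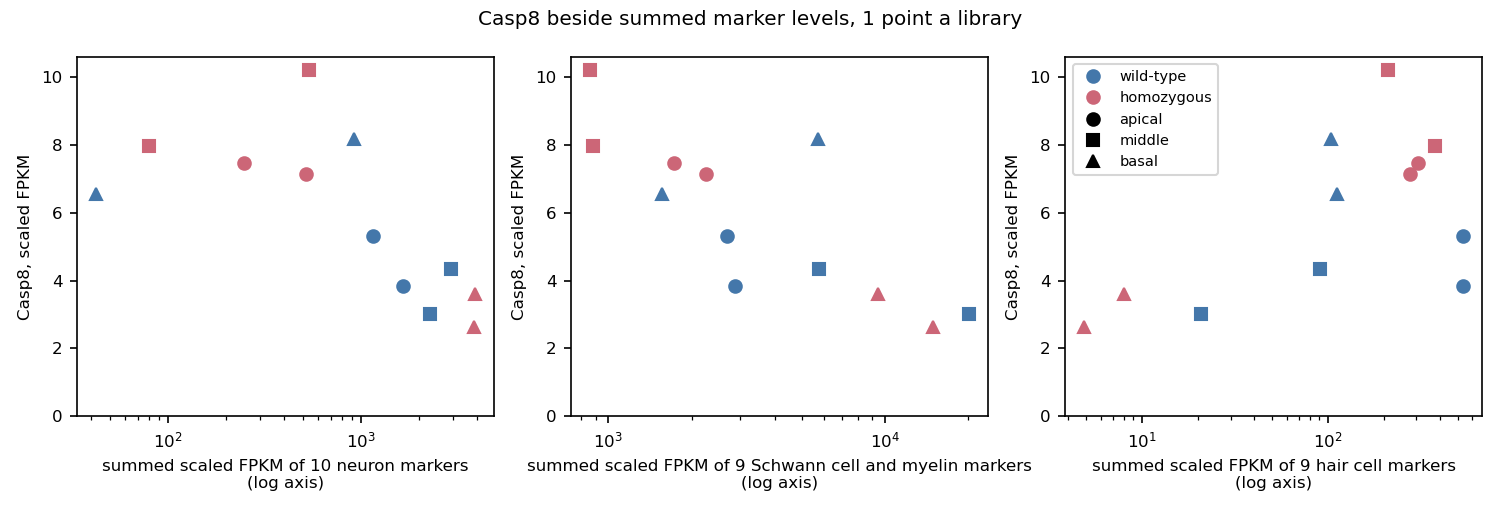
Casp8 in scaled FPKM (vertical axes, starting at 0) against summed scaled FPKM of neuron, Schwann cell and myelin, and hair cell markers (horizontal axes, log scale); each of the 12 points is a library, with colour for genotype and shape for turn. The homozygous basal pair joins Casp8 at 3.60 and 2.63 with neuron sums of 3917 and 3866.

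Because of the distances between libraries, middle and basal groups were also compared across turns, a choice made after seeing the data. Homozygous basal less wild-type middle Casp8 was -0.18 (SE 0.23, limma BH-adjusted p = 0.795), and homozygous middle less wild-type basal Casp8 was 0.27 (SE 0.23, adjusted p = 0.888). Neither was called, and limma called 19 and 13 of all tested genes there. Turn and genotype cannot be told apart in such a comparison.

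Along the homozygous cochlea Casp8 was lower in the basal than in the middle turn, with a log2 difference of -1.30 (SE 0.23, limma BH-adjusted p = 0.00823), called in a contrast with 756 calls (4.66%). The call was lost under 15 of 24 alternatives, among them library weights (adjusted p = 0.0152) and 10 of 12 single libraries left out, where the value ran from -1.47 to -1.12. Homozygous basal less apical Casp8 was -1.03 (SE 0.23, limma BH-adjusted p = 0.0172), not called, beside 659 genes that were (4.06%). In homozygous mice the middle and apical turns gave 0 limma calls (0%, with 429 genes at an unadjusted p under 0.05).

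Wild-type Casp8 was numerically higher in the basal than in the middle turn, by 0.85 (SE 0.23, limma BH-adjusted p = 0.144, 95% interval 0.33 to 1.36). Limma called 0 genes there (0%), with 2472 at an unadjusted p under 0.05. Against the apical turn it called 14 genes in the wild-type middle (0.0863%) and 14 in the wild-type basal turn (0.0863%), none of them among the 8, of which 0 and 3 had an unadjusted p under 0.05 (all genes 19.9% and 20.3%).

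Over the 3 turns together the Casp8 difference was 0.23 (SE 0.13, limma BH-adjusted p = 0.408, 95% interval -0.07 to 0.52), as its turns differ in sign. Ranked by mean, Casp8 was highest in homozygous middle (9.09 ± 1.59 scaled FPKM, SD, n = 2), wild-type basal (7.36 ± 1.15) and homozygous apical libraries (7.32 ± 0.225), in an order of the last 2 that changed under each other scaling. A gap separated these from wild-type apical (4.58 ± 1.04), wild-type middle (3.67 ± 0.936) and homozygous basal libraries (3.12 ± 0.683), and was kept under all 4 scalings. Stat6 (r = 0.96, rho = 0.92), Sik1 (r = 0.96, rho = 0.90) and Hdac1 (r = 0.96, rho = 0.85) had the most similar log2 levels over the 12 libraries among 9464 genes with a mean of 5 scaled FPKM or more. This describes libraries that share genotype and turn.

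Casp9, the initiator on the mitochondrial side (chr4:141793612-141815976, plus strand, ENSMUSG00000028914.13), was the flattest of the 8 genes, from 5.38 to 7.48 scaled FPKM. That is a 1.39-fold range, against 3.88-fold for Casp8. Averaged over the 3 turns its genotype difference was -0.12 (SE 0.09, limma BH-adjusted p = 0.552, 95% interval -0.34 to 0.09), so a doubling lay outside the interval. Homozygous Casp9 was below wild-type without overlap apically and in the middle turn, where the estimate turned to 0.10 on FPKM as deposited and to 0.06 with equal library sums, and the basal pairs overlapped. Group means ran from 7.22 ± 0.277 (SD, n = 2) in wild-type apical to 6.05 ± 0.305 in homozygous apical libraries, the lowest group being another under each other scaling, and each of the 6 groups overlapped the next. Zbtb18, Pde4dip and Ppm1b were most like it (r = 0.90, 0.89 and 0.87).

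Among the other caspases, the executioner Casp6 took the course of Casp8. Casp6 measured 9.28 and 8.72 scaled FPKM (wild-type) against 13.1 and 15.3 (homozygous) apically, 6.76 and 6.82 against 11.8 and 13.7 in the middle turn, and 9.76 and 11.9 against 6.47 and 5.80 basally. Homozygous Casp6 was higher apically and in the middle turn and lower basally, without overlap, and the basal against middle difference was called at -1.54 (SE 0.22, limma BH-adjusted p = 0.00324). Of 9 caspases tested out of 10, 8 were higher in the homozygous middle turn (median log2 difference 0.70; all genes 0.04, 53.4% higher) and 8 lower basally (median -0.43; all genes -0.02, 51.7% lower). Limma called 0 of them in either turn, with 5 and 4 at an unadjusted p under 0.05 (all genes 25.4% and 32.4%).

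The death receptor pathway was measured as a list of 12 genes, Casp8 itself included. Of 10 tested, 8 were lower in the homozygous basal turn (all genes 51.7%), and Fas and Cflar were called there (all genes 4.29%). Fas, a death receptor, measured 4.74 and 4.37 in the wild-type against 1.33 and 1.33 scaled FPKM in the homozygous basal pair, a difference of -1.25 (SE 0.16, limma BH-adjusted p = 0.00484). Cflar, which blocks caspase-8 and neighbours its gene (chr1:58711551-58758884), measured 21.9 and 19.2 against 9.60 and 8.35, a difference of -1.11 (SE 0.15, limma BH-adjusted p = 0.00484). The middle pairs of Cflar overlapped at 15.4 and 17.0 against 14 and 16.6, unlike those of Casp8.

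Basal against middle turn, the genotype difference was called lower for 4 of these 10 genes, Casp8, Fas, Cflar and the TNF receptor Tnfrsf1a, the last at -1.70 (SE 0.27, limma BH-adjusted p = 0.00406), where 2.58% of all genes were called lower. The list's median there was -1.02 and that of all genes -0.12. Tnfrsf1a (24.4 scaled FPKM), Tnfrsf21 (20.5) and Cflar (15.8) had the highest means.

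**Figure D3:**
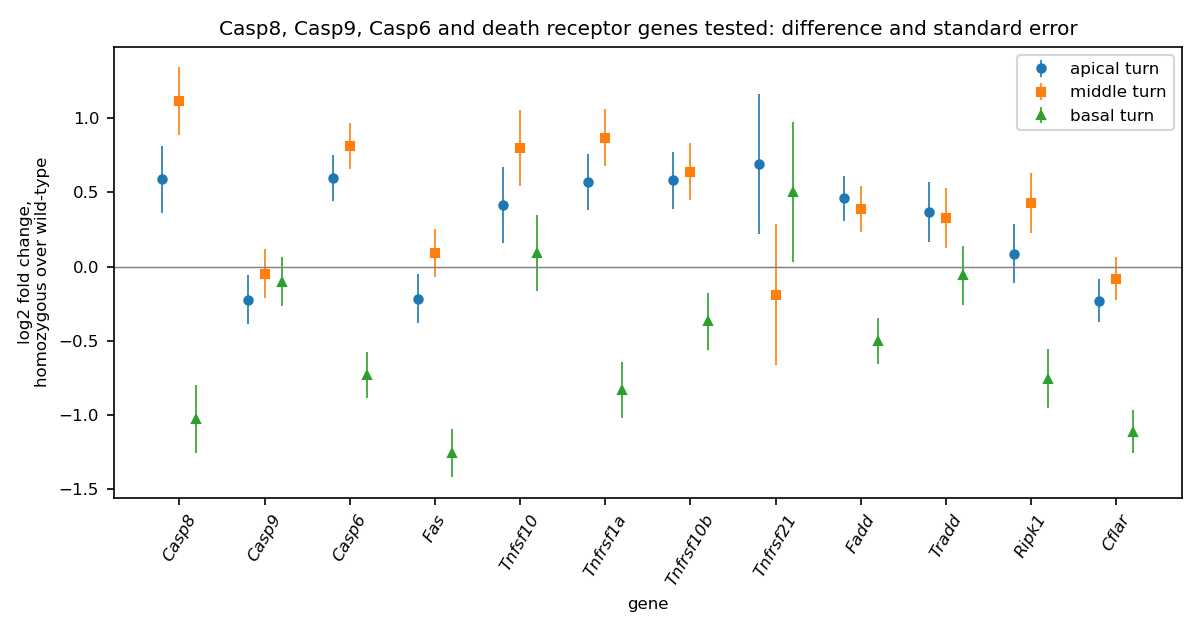
Log2 fold change of homozygous over wild-type libraries (vertical axis) with SE bars for Casp8, Casp9, Casp6 and the tested death receptor genes (horizontal axis) in the 3 turns. Casp8 lies at 1.12 (middle) and -1.03 (basal), and Casp9 between -0.22 and -0.05, with a middle value that is above 0 on FPKM as deposited and with equal library sums.

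Of 9 genes for the apoptosome and mitochondrial release, Casp9 included, Dffa alone was called between genotypes within a turn (basally, all genes 4.29%). Dffa, which inhibits the DNA-cutting nuclease of dying cells, measured 5.22 and 7.97 scaled FPKM in wild-type against 16.3 and 17.4 in homozygous basal libraries and rose by 1.26 (SE 0.23, limma BH-adjusted p = 0.00921). Homozygous Dffa lay below wild-type elsewhere, at 4.96 and 5.79 against 8.83 and 10.1 apically and 7.40 and 4.77 against 9.34 and 9.39 in the middle turn. Cycs (24.0), Diablo (21.8) and Aifm1 (13.4) had the highest mean scaled FPKM. The 5 caspase inhibitors, with Xiap (19.1), Birc2 (14.3) and Birc6 (8.81) leading, gave 0 limma calls between genotypes, and 1, 2 and 0 had an unadjusted p under 0.05 in the apical, middle and basal turn (all genes 16.4%, 25.4% and 32.4%).

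Bax and Bak1 make the mitochondrial pore. Bax (chr7:45461697-45466898, minus strand) measured 19.4 and 24.6 scaled FPKM in wild-type against 24.9 and 32.7 in homozygous apical libraries, and 28.0 and 26.1 against 32.5 and 32.8 in the middle turn. Its basal values were 33.6 and 36.7 for wild-type and 26.5 and 33.0 for homozygous mice. Homozygous Bax was a little higher apically and in the middle turn and a little lower basally, each time without overlap except apically with equal library sums, and over the 3 turns the difference was 0.13 (SE 0.11, limma BH-adjusted p = 0.575, 95% interval -0.11 to 0.37).

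Bak1 (chr17:27019810-27029009, minus strand) ran from 6.52 to 14.2 scaled FPKM and peaked in the first homozygous middle library. Its homozygous pair was above wild-type apically, barely so in the middle turn, and overlapped it basally, or lay below it with equal library sums, and the difference over the 3 turns was 0.15 (SE 0.14, limma BH-adjusted p = 0.621, 95% interval -0.16 to 0.46). Without the first homozygous middle library the middle difference of Bak1 was 0.02 in place of 0.36. Bak1 shares its locus with Ggnbp1 on the other strand (1.93 to 5.23 scaled FPKM), and since strand use is not stated, reads of the pair cannot be told apart.

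Per length, Bax was above Bak1 in each of the 12 libraries, by 2.28 to 4.06 times. Within the wild-type cochlea Bax had a mean of 22.0 ± 3.72 (SD, n = 2) apically, 27.0 ± 1.30 in the middle turn and 35.1 ± 2.22 basally, though apical and middle ranges overlapped on FPKM as deposited and changed order with equal library sums, and the basal less apical difference of 0.66 (SE 0.18, limma BH-adjusted p = 0.122) was not called. Bok, the third pore former, had a mean of 1.90 scaled FPKM. Sqor, Arf2 and Polr2l were most like Bax (r = 0.90, 0.90 and 0.90), and Snrpg, Ciao2a and Ifngr1 most like Bak1 (r = 0.95, 0.94 and 0.94).

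Bcl2, the founding survival gene of the family (chr1:106538178-106714274, minus strand), was numerically lower in homozygous mice throughout. Apical libraries measured 9.82 and 10.9 scaled FPKM for wild-type and 7.13 and 4.66 for homozygous mice, and middle libraries 8.75 and 8.22 against 5.97 and 7.33. Basal libraries measured 12.6 and 4.67 against 4.52 and 4.05. Homozygous Bcl2 lay below wild-type without overlap in all 3 turns, as did 2.06% of tested genes, but the middle pairs overlapped on FPKM as deposited and the middle and basal pairs with equal library sums, and the wild-type basal pair was far apart and its second library came close to the homozygous values.

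Over the 3 turns Bcl2 differed by -0.60 (SE 0.21, limma BH-adjusted p = 0.165, 95% interval -1.06 to -0.13), lower in 3 of 3 turns, which was not called. That value was -0.81 without the second wild-type basal library and -0.39 without the first. Without the second wild-type basal library the basal difference of Bcl2 went from -0.74 to -1.37 and was called (limma BH-adjusted p = 0.00544), whereas without the first it was -0.11 (adjusted p = 0.842). Across 25 alternatives its adjusted p ran from 0.00544 to 0.842.

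Bcl2l1, the BCL-XL gene (chr2:152780668-152831728, minus strand), was the more abundant survival gene, 3.28 to 10.3 times Bcl2 per length. It ran from 30.9 to 69.0 scaled FPKM, highest in the first wild-type basal library, where the second had 41.0. Homozygous Bcl2l1 was above wild-type apically, overlapped it in the middle turn and was below it basally, where the pairs overlapped with equal library sums, and the difference over the 3 turns was -0.16 (SE 0.14, limma BH-adjusted p = 0.605, 95% interval -0.49 to 0.16).

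Of 5 survival genes tested out of 8, limma called 0 between genotypes in any turn, with 1, 2 and 2 at an unadjusted p under 0.05 apically, in the middle turn and basally (all genes 16.4%, 25.4% and 32.4%). Bcl2l1 had their highest mean (43.0 scaled FPKM), then Mcl1 (39.8) and Bcl2l2 (28.2). Mtf2, Amer2 and Entpd8 were most like Bcl2 (r = 0.96, 0.96 and 0.96), and Ppp1r21, Pccb and Pim3 most like Bcl2l1 (r = 0.91, 0.90 and 0.90).

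**Figure D4:**
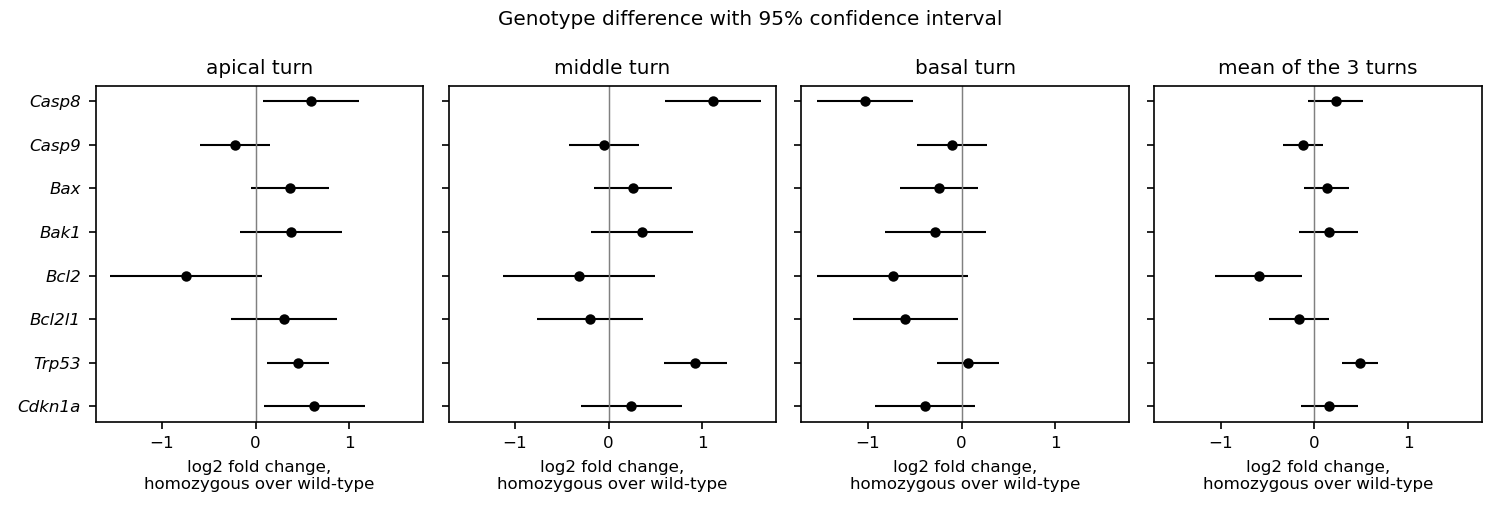
Log2 fold change of homozygous over wild-type libraries (horizontal axes) for the 8 genes in each turn and over the 3 turns; points are limma estimates and bars are 95% confidence intervals. Over the 3 turns the interval of Trp53 (0.29 to 0.68) lies above 0 and that of Bcl2 (-1.06 to -0.13) below 0.

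The balance of Bax to Bcl2, often read as a readiness to die, was computed as a ratio of RNA levels per length. The ratio was 1.97 and 2.27 (wild-type) against 3.49 and 7.01 (homozygous) apically, 3.20 and 3.18 against 5.45 and 4.48 in the middle turn, and 2.66 and 7.85 against 5.86 and 8.14 basally. The homozygous ratio was higher without overlap apically and in the middle turn and overlapped wild-type basally. Bax to Bcl2l1, the more abundant survival gene, was 0.549 and 0.691 (wild-type) against 0.620 and 0.679 (homozygous) apically. It was 0.561 and 0.590 against 0.891 and 0.719 in the middle turn, and 0.486 and 0.896 against 0.678 and 1.07 basally. That ratio was higher without overlap in the middle turn only. Neither ratio was tested, nor set beside all genes.

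BH3-only proteins trigger Bax and Bak1. Of 9 such genes tested out of 10, 7 were lower in the homozygous basal turn (median -0.61; all genes -0.02, 51.7% lower). Bmf, 1 of these 9, was called lower at -1.06 (SE 0.20, limma BH-adjusted p = 0.00981), in a turn where 4.29% of all genes were called. Bmf measured 13.9 and 9.43 scaled FPKM in wild-type against 4.92 and 5.03 in homozygous basal libraries. Bnip3l (53.6), Bnip3 (42.8) and Bad (20.7) had the highest mean scaled FPKM.

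Trp53, the p53 gene (chr11:69580359-69591873, plus strand, ENSMUSG00000059552.13), stands head to head with Wrap53. The 103 RefSeq bases between the start of Trp53 and the GENCODE start of Wrap53 (69580255) are printed, chr11:69580256-69580358 on the plus strand of GRCm38.p6. They lie between both genes in that annotation and hold a match to the p53 half-site. The table places the start of Wrap53, on the minus strand, further away, at 69579324. Of the 250-base windows before the other starts, that of Bax held 1 such match and 1 of the 2 of Cdkn1a held 2, the others 0.
Trp53: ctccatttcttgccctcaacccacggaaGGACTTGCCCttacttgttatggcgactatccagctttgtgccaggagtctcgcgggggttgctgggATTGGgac
Capitals mark 1 match to the half-site RRRCWWGYYY and ATTGG, the letters CCAAT read on the other strand. The shares given for Casp8 were counted in windows of 250 bases and do not apply to this shorter stretch, and whether p53 binds here was not tested.

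In apical libraries Trp53 measured 13.8 and 11.3 scaled FPKM for wild-type and 18.8 and 16.3 for homozygous mice. Middle libraries held 11.6 and 10.4 for wild-type and 23.1 and 20.6 for homozygous mice. Basal libraries held 13.4 and 13.4 for wild-type and 14.3 and 13.9 for homozygous mice. All 6 homozygous values were above all 6 wild-type values, widely in the middle turn and narrowly in the basal turn, but not on FPKM as deposited, where the second homozygous basal library was below the first wild-type apical one, nor with equal library sums, where the basal pairs overlapped. That order was met by 0.808% of tested genes and its reverse by 0.66%, while 1.53% were higher without overlap within each of the 3 turns.

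Over the 3 turns the Trp53 difference was 0.48 (SE 0.08, limma BH-adjusted p = 0.0268, 95% interval 0.29 to 0.68), a 1.40-fold ratio. It missed both thresholds and was not called. Limma called 61 genes over the 3 turns (0.376%), 0 of the 8 among them and 2 of the 8 at an unadjusted p under 0.05 (all genes 18.6%), and 2.36% had an adjusted p under 0.05. An exchange of turn labels inside a genotype, which was not tested, would leave this average as it is. Exchanging single libraries could still change its SE and adjusted p.

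By turn the Trp53 difference was 0.45 (SE 0.15, limma BH-adjusted p = 0.177) apically, 0.93 (SE 0.15, adjusted p = 0.0221) in the middle turn and 0.07 (SE 0.15, adjusted p = 0.775) basally. The basal less middle difference was -0.85 (SE 0.21, limma BH-adjusted p = 0.0198, 95% interval -1.32 to -0.38), also short of a call. In that contrast 22.9% of genes had an adjusted p under 0.05, and in the basal against apical one 12.5% did. Across turns, homozygous basal less wild-type middle Trp53 was 0.33 (SE 0.15, limma BH-adjusted p = 0.357) and homozygous middle less wild-type basal Trp53 0.67 (SE 0.15, adjusted p = 0.277), neither called.

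The neighbour and the copy of Trp53 were lower than Trp53 itself. Wrap53 ran from 2.93 to 4.86 scaled FPKM and differed by -0.08 (SE 0.10, limma BH-adjusted p = 0.731) over the 3 turns. The pseudogene Trp53-ps did not exceed 0.180 in any library.

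Ranked by mean, Trp53 was highest in homozygous middle (21.9 ± 1.80 scaled FPKM, SD, n = 2), homozygous apical (17.6 ± 1.74) and homozygous basal libraries (14.1 ± 0.258), with gaps between their ranges except with equal library sums. Wild-type basal (13.4 ± 0.0470), apical (12.6 ± 1.75) and middle libraries (11.03 ± 0.849) came next, apical being above basal with equal library sums. P3h3, H2-Q4 and Aaas were most like Trp53 (r = 0.94, 0.94 and 0.93). Over the 12 libraries r was 0.71 between Trp53 and Casp8, 0.70 between Casp8 and Cdkn1a, and 0.41 between Trp53 and Cdkn1a, as a description.

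Of 9 p53 family members and regulators tested out of 13, limma called 0 between genotypes. At an unadjusted p under 0.05 there were 3 apically, 1 in the middle turn and 1 basally (all genes 16.4%, 25.4% and 32.4%). Usp7 (26.5), Mdm4 (21.9) and Trp53 (15.1) had the highest mean scaled FPKM.

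Cdkn1a, the p53 target that stops the cell cycle (chr17:29090979-29100727, plus strand), was the most abundant of the 8 genes by mean. Cdkn1a measured 48.1 and 47.0 scaled FPKM in wild-type against 66.6 and 82.3 in homozygous apical libraries, 47.9 and 72.0 against 60.5 and 80.5 in the middle turn, and 62.1 and 64.8 against 54.6 and 42.5 basally. Homozygous Cdkn1a was above wild-type apically, overlapped it in the middle turn and was below it basally, where the pairs overlapped with equal library sums. The difference was 0.63 (SE 0.24, limma BH-adjusted p = 0.238, 95% interval 0.09 to 1.16) apically and 0.16 (SE 0.14, adjusted p = 0.594, 95% interval -0.15 to 0.47) over the 3 turns. Agfg2, Rnf149 and Nrep were most like Cdkn1a (r = 0.93, 0.93 and 0.90).

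Of 24 p53 targets tested out of 26, 15 were higher and 9 lower over the 3 turns, with a median of 0.05 against 0.00 for all genes (50.1% higher), 0 limma calls and 6 at an unadjusted p under 0.05 (all genes 18.6%). Basally 15 of 24 were lower (all genes 51.7%), and Fas and the stress-induced Trp53inp1 were called (all genes 4.29%), the latter at -1.43 (SE 0.17, limma BH-adjusted p = 0.00403). Tigar, a regulator of sugar metabolism, went the other way, with a basal less middle difference of 2.09 (SE 0.34, limma BH-adjusted p = 0.00450). After Cdkn1a (60.7 scaled FPKM), Ei24 (45.0) and Trp53inp1 (36.0) had the highest means.

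Genes of the cell cycle, which Cdkn1a halts, were numerically higher in the homozygous middle turn. All 17 tested were higher there (16 with quantile normalization), with a median of 1.27, 0 limma calls and 11 at an unadjusted p under 0.05 (all genes 25.4%, and 53.4% higher), and basally 13 were lower (all genes 51.7%), with a median of -0.29. The first homozygous middle library stood apart: it exceeded both wild-type libraries for all 17 genes, with a median difference of 1.53, whereas the second did so for 13 and was below both for 4, with a median of 0.64. Pcna, for example, measured 64.7 and 25.6 scaled FPKM in these 2 libraries, against 30.2 and 37.0 in the wild-type middle pair. That first library also had the highest neutrophil sum, given below. Cdk2 gave a basal less middle difference of -1.97 (SE 0.27, limma BH-adjusted p = 0.00298), and the cyclins Ccnd3 and Ccnd2 gave -1.75 (SE 0.31, adjusted p = 0.00602) and -1.27 (SE 0.26, adjusted p = 0.00961), so that 3 of 17 were called, against 8.91% of all genes. Ccnd1 was called higher over the 3 turns, as 1 of 17 against 0.376% of all genes, at 1.38 (SE 0.18, limma BH-adjusted p = 0.00885), with a wild-type range of 3.87 to 7.88 and a homozygous range of 9.25 to 23.2 scaled FPKM. Ccnd3 (41.0), Cdk4 (32.4) and Pcna (31.0) had the highest means.

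Among 6 CDK inhibitors tested out of 7, Cdkn1c rose over the 3 turns by 1.76 (SE 0.23, limma BH-adjusted p = 0.00943), as 1 of 6 called against 0.376% of all genes. Its wild-type range was 12.8 to 40.9 and its homozygous range 33.4 to 173 scaled FPKM, so the ranges overlap. The difference was 3.05 (SE 0.41, limma BH-adjusted p = 0.0147) apically, 1.72 (SE 0.41, adjusted p = 0.0530) in the middle turn and 0.52 (SE 0.41, adjusted p = 0.418) basally, none of them called. Middle libraries measured 40.9 and 27.5 for wild-type against 80.9 and 157 for homozygous mice, without overlap. Cdkn1b (69.9), Cdkn1c (63.4) and Cdkn1a (60.7) had the highest mean scaled FPKM.

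One library stood out for neutrophil markers where Bak1, Casp8 and Trp53 peaked. The 9 neutrophil markers, led by S100a9 and with 1 at 0 somewhere, summed to 6380.2 and 349 scaled FPKM (homozygous) against 43.6 and 247 (wild-type) in the middle turn, 125 and 169.6 against 424 and 2042 basally, and 115 and 503 against 278 and 35.7 apically. All 9 were higher in the homozygous middle turn, 6 at an unadjusted p under 0.05 (all genes 25.4%). All 9 were lower basally, 0 at that p (all genes 32.4%), and limma called 0 in either turn. For the basal less middle genotype difference 7 of 9 passed that p (all genes 37.7%), with 0 limma calls. The second homozygous middle library exceeded both wild-type libraries for 7 of the 9. Bak1, Casp8 and Trp53 were highest in the first homozygous middle library, and the part of these cells in their values was not tested.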

How the data were processed

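RNA-seq libraries of apical, middle and basal cochlear turns of wild-type and Gjb2 35delG homozygous P14 mice (2 per group) were analysed from 1 table of FPKM values as deposited. The authors made these FPKM values from reads aligned to mm10, and the submitters' processing notes name fastp 0.20.0, STAR 2.7.3a, featureCounts 2.0.0, StringTie 2.0, deepTools 3.3.1 and DESeq2 1.30.0. Depth and strand use are not given in the sources used here.

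Each column of FPKM was scaled by its median-of-ratios factor, taken from 11552 genes at 1 FPKM or more in every library. Log2 values (pseudocount 1) of 16215 genes were fitted with limma 3.58.1 in R 4.3.3 (1 mean per group, trended eBayes, two-sided, BH over all genes tested, called at adjusted p under 0.01 and fold over 2); the script was tested on simulated data. Figures used Python 3.11.15, pandas 2.3.3 and matplotlib 3.10.9. Positions are those of the table, except the start of Wrap53 beside the printed Trp53 stretch, which is from GENCODE. Sequences are from RefSeq (GRCm38.p6), with all 8 genes matched by symbol. 63 names stood on more than 1 identifier, none of them a named gene.

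Genes named in the text are the 8 genes, Gjb2, list genes called in a genotype contrast or in its difference between turns, the 3 genes of highest mean in each pathway list, the most abundant gene of each marker set, and the 3 genes most correlated with each of the 8. Wrap53, Ggnbp1 and Trp53-ps were added as neighbours, overlapping genes or copies after their values were seen. The genes of highest mean among the caspases are not given, as a result that needs a withheld item was left out. Lists were caspases, death receptor pathway, apoptosome and mitochondrial release, caspase inhibitors, BCL2 survival genes, pore formers, BH3-only genes, p53 regulators, p53 targets, CDK inhibitors, cell cycle genes and 17 sets of cell type markers. The 8 genes and all lists were chosen with earlier results of these data known. Alternatives changed the pseudocount, filter, scaling, library weights, variance trend, replicate block, libraries in the fit and threshold, and left out each library.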

Additional observations from a re-analysis of the deposited data

Results flagged for a closer look

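The genotype difference (homozygous over wild-type, log2) differed between the basal and the middle turn by a limma test of that difference, adjusted over all genes tested, for 11 of the 98 tested genes among the 8 genes and their pathway lists (11.2%). The basal less middle value was -2.14 (1.12 middle, -1.03 basal) for Casp8 and -1.54 (0.81 middle, -0.73 basal) for Casp6. In the death receptor pathway it was -1.35 (0.09 middle, -1.25 basal) for Fas, -1.70 (0.87 middle, -0.83 basal) for Tnfrsf1a and -1.03 (-0.08 middle, -1.11 basal) for Cflar. Dffa, with 1.83 (-0.57 middle, 1.26 basal), and Tigar, with 2.09 (-0.83 middle, 1.25 basal), went the other way. Trp53inp1 had -1.78 (0.34 middle, -1.43 basal). Among cell cycle genes it was -1.27 (0.89 middle, -0.38 basal) for Ccnd2, -1.75 (1.18 middle, -0.57 basal) for Ccnd3 and -1.97 (1.33 middle, -0.64 basal) for Cdk2. Of all genes tested 8.91% were called in this contrast, in which the neuron, myelin and hair cell markers also differed; their part in these values was not tested.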

How the results depend on the processing

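Casp8 kept its sign in every alternative of all 13 contrasts, the added comparisons across turns not being recomputed, but its calls depended on the processing. The basal less middle genotype effect of Casp8 was past the threshold in 20 of 24 alternatives; it was lost at -2.14 with no filter (limma BH-adjusted p = 0.0118), where more genes are tested, and ran from -2.35 to -1.94 without 1 library. Homozygous basal less middle Casp8 lost its call at -1.30 with no filter, -1.25 with equal sum, -1.30 with library weights, -1.30 with the fixed replicate block and -1.30 with the random replicate block, and ran from -1.47 to -1.12 without 1 library. At adjusted p under 0.05 with any fold, Casp8 passed in the basal (-1.03) and the middle turn (1.12), and Trp53 in the middle turn (0.93) and over the 3 turns (0.48). The limma BH-adjusted p stayed under 0.05 for basal Casp8 11 of 12 times without 1 library and in 10 of 12 other alternatives (lost with library weights and in a fit of its own turn; highest 0.163), for middle Casp8 4 of 12 times without 1 library and in 9 of 12 other alternatives (lost with no filter, the fixed replicate block and its own turn; highest 0.164), for middle Trp53 7 of 12 times without 1 library and in 11 of 12 other alternatives (lost in its own turn; highest 0.0947) and for Trp53 over the 3 turns 3 of 12 times without 1 library and in 10 of 11 other alternatives (lost with equal sum; highest 0.102). Without 1 library, Casp8 ran from -1.19 to -0.85 in the basal and from 0.91 to 1.32 in the middle turn, and Trp53 over the 3 turns from 0.44 to 0.53. The Trp53 basal less middle effect, -0.85 with all libraries, ran from -0.93 to -0.77. Casp9 in the middle turn turned to 0.10 with FPKM as deposited and to 0.0558 with equal sum. Casp9 in the basal turn ran from -0.28 to 0.0914 without 1 library, its basal less middle effect from -0.23 to 0.14, and that of Bcl2 from -1.05 to 0.20, while Cdkn1a in the middle turn ran from -0.0479 to 0.53. Bcl2 in the basal turn ran from -1.37 to -0.11 without 1 library, and Bcl2l1 there from -0.97 to -0.24. Over the 3 turns the ranges without 1 library were -0.29 to -0.04 for Bcl2l1, 0.04 to 0.26 for Bak1 and 0.06 to 0.26 for Cdkn1a. They were 0.07 to 0.19 for Bax and -0.18 to -0.06 for Casp9. The cause was not tested. A library left alone in its group is assumed to vary like the other groups.

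Counts of calls over all genes, where an alternative moved them by more than 1.5 times, were as follows. Between genotypes, the 29 calls in the apical turn became 13 (pseudocount 0.1), 13 (pseudocount 0.01), 17 (no filter), 17 (equal sum), 258 (library weights), 12 (a fixed replicate block), 93 (own turn alone) and 151 (adjusted p under 0.05 at any fold), and 4 to 52 without 1 library. The 29 calls in the middle turn became 19 (pseudocount 0.1), 16 (pseudocount 0.01), 15 (no filter), 17 (a filter of 5 FPKM), 16 (equal sum), 63 (library weights), 12 (a fixed replicate block), 0 (own turn alone) and 647 (adjusted p under 0.05 at any fold), and 5 to 50 without 1 library. The 696 calls in the basal turn became 89 (no filter), 22 (library weights), 177 (a fixed replicate block), 0 (own turn alone) and 2936 (adjusted p under 0.05 at any fold), and 40 to 1840 without 1 library. The 61 calls over the 3 turns became 26 (no filter), 31 (a filter of 5 FPKM), 34 (a fixed replicate block) and 383 (adjusted p under 0.05 at any fold), and 13 to 301 without 1 library. Between turns, the 129 calls for the basal less apical genotype effect became 71 (pseudocount 0.01), 13 (no filter), 198 (a filter of 5 FPKM), 435 (equal sum), 345 (quantile), 84 (library weights), 0 (a fixed replicate block), 76 (a random replicate block) and 2020 (adjusted p under 0.05 at any fold), and 0 to 1103 without 1 library. The 1445 calls for the basal less middle genotype effect became 296 (no filter) and 3718 (adjusted p under 0.05 at any fold), and 280 to 2275 without 1 library. The 0 calls for the middle less apical genotype effect became at most 1, without 1 library. Within a genotype, the 14 calls for wild-type middle less apical became 0 (pseudocount 0.1), 0 (pseudocount 0.01), 4 (a filter of 5 FPKM), 111 (library weights), 5 (a fixed replicate block) and 79 (adjusted p under 0.05 at any fold), and 0 to 24 without 1 library. The 14 calls for wild-type basal less apical became 0 (pseudocount 0.1), 0 (pseudocount 0.01), 9 (no filter), 4 (a filter of 5 FPKM), 1 (library weights), 4 (a fixed replicate block), 9 (a random replicate block) and 172 (adjusted p under 0.05 at any fold), and 0 to 26 without 1 library. The 0 calls for wild-type basal less middle became 1 (adjusted p under 0.05 at any fold), and 0 to 14 without 1 library. The 0 calls for homozygous middle less apical became 1 (no filter), and stayed at 0 without any 1 library. The 659 calls for homozygous basal less apical became 13 (no filter), 145 (a fixed replicate block) and 2959 (adjusted p under 0.05 at any fold), and 0 to 1537 without 1 library. The 756 calls for homozygous basal less middle became 71 (no filter), 300 (a fixed replicate block) and 3059 (adjusted p under 0.05 at any fold), and 0 to 1561 without 1 library.

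Of the 8 genes, the number past adjusted p under 0.05 with any fold was 2 in the middle turn (all genes 3.99%) and 1 in the basal turn (all genes 18.1%). It was 1 over the 3 turns (all genes 2.36%), 1 for the basal less apical genotype effect (12.5%) and 2 for the basal less middle one (22.9%). Within homozygous mice it was 1 for basal less apical and 2 for basal less middle, where 2959 and 3059 of 16215 genes passed. At the main threshold with no filter the number called was 0 for the basal less middle effect, and for homozygous basal less middle it was 0 with no filter, equal sum, library weights and either replicate block. Without 1 library the number called was 0 to 1 in the basal turn, for the basal less middle effect and for homozygous basal less middle.

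Scaling shifted all genes. The median log2 difference of all genes in the middle turn, 0.04, was 0.17 with FPKM as deposited and 0.13 with equal sum. With equal sum the apical -0.03 was -0.13 and the basal -0.02 turned to 0.05. The basal less middle median of -0.12 was -0.25 with FPKM as deposited. Of the calls, 55.2% were higher in homozygous apical libraries and 70.6% with equal sum, 44.8% in middle libraries with 60.9% as deposited and 56.2% with equal sum, 58.9% in basal libraries with 79.3% with equal sum, 47.5% over the 3 turns with 58.0% with equal sum. Medians of the apoptosome list in the middle turn went from -0.05 to 0.10 as deposited and 0.06 with equal sum, so directions of small differences depend on the scaling.

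Labels number the libraries of each group 1 and 2. Deviations of equally numbered libraries correlated over 0.1 in 4 of 15 pairs of groups (-0.43 to 0.45). Within a genotype 1 of 6 pairs did (-0.41 to 0.27), so the numbers were not used to pair libraries. With 2 libraries a group, crossed numbers give the same correlations with the opposite sign. Whether libraries of different turns share animals was not tested. The random replicate block joined the turns of 1 genotype and number, with a correlation of -0.06. With the fixed replicate block 177 genes were called in the basal turn, against 696 without it. FPKM carry no counts, so what depth limits could not be measured.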

Other observations

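The other cell type markers in the libraries behind these comparisons were as follows, as summed scaled FPKM of wild-type middle, homozygous middle, wild-type basal and homozygous basal libraries in turn. The 8 supporting cell markers (most abundant Epyc) summed to 336 and 456, 694 and 947, 603 and 188, and 91.3 and 23.5. Of the 8, 4 had a called negative and 1 a called positive basal less middle genotype difference (all genes 2.58% and 6.33%). Within a turn 1 was called higher apically and 1 lower basally (all genes 0.0987% and 1.76%). The 5 fibrocyte markers (Coch) summed to 7385 and 7858, 8277 and 12338, 7208 and 6845, and 2678 and 472, with 0 limma calls in any turn or in the basal less middle genotype difference. At an unadjusted p under 0.05 were 1, 0, 3 and 5 of them in the apical, middle and basal turn and that difference. The shares of all genes were 16.4%, 25.4%, 32.4% and 37.7%. The 6 oligodendrocyte markers (Mobp) summed to 987 and 6.52, 1.002 and 1.40, 2.04 and 293, and 300.0 and 443, so that 1 of the 2 wild-type libraries was high in each of these turns.

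Strial marker sums were higher in homozygous than in wild-type middle libraries, with 0 limma calls. There 6 of 6 marginal cell and 2 of 5 tested melanocyte markers had an unadjusted p under 0.05 (all genes 25.4%). Apical sums were 174 and 169.8 for wild-type against 433 and 992 for homozygous mice (marginal cell) and 48.2 and 58.2 against 249 and 674 (melanocyte), also with 0 limma calls and with 6 and 3 markers at an unadjusted p under 0.05 (all genes 16.4%). The 6 marginal cell markers (Atp1b2) summed to 212 and 147, 509 and 702, 245 and 571, and 422 and 142, and the 6 melanocyte markers (Dct) to 69.0 and 29.0, 274 and 568, 35.5 and 555, and 204 and 35.2. Bone and B cell marker sums varied between repeats in some groups, as erythroid sums did in the apical and middle turns. Apical erythroid sums were 495 and 232 for wild-type against 281 and 1167 for homozygous mice. The 9 osteoblast markers (Spp1) summed to 2489.9 and 2521, 4493 and 2061, 1163 and 5726, and 1621 and 1395, and the 7 osteoclast markers (Ctsk) to 18.7 and 22.3, 396 and 26.6, 28.0 and 92.5, and 20.1 and 21.0. The 7 erythroid markers analysed (Hbb-bs) summed to 490.2 and 1590.2, 3535 and 577, 3179.5 and 4993, and 436 and 524, and the 7 B cell markers (Cd79b) to 2.59 and 2.62, 105 and 7.49, 8.04 and 35.3, and 2.81 and 5.22. All 7 erythroid markers were lower in the homozygous basal turn, 5 of them at an unadjusted p under 0.05 (all genes 32.4%). Their basal less middle genotype difference was lower for all 7, with 7 at that p (all genes 37.7%). Limma called 0 of them in either.

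Of the remaining sets, the 8 macrophage markers (C1qb) lay between 49.1 and 212 over the 12 libraries and the 5 endothelial markers (Cldn5) between 27.1 and 62.1. The 5 T cell markers (Cd2) did not exceed 4.08, nor the 6 skeletal muscle markers (Mylpf) 4.27. Levels of the 8 genes were not adjusted for any of these sets.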
